A study of Mus musculus with 8 samples.

Results

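This report describes 10 genes of the neuronal microtubule system in cancers of the mouse gastric squamous-columnar junction (SCJ), the border between the squamous forestomach and the glandular stomach. They are the tubulin genes Tuba1a, Tubb2a, Tubb2b and Tubb3, the stathmin genes Stmn1, Stmn2, Stmn3 and Stmn4, and the genes Dcx and Mapt. They were chosen by symbol, as a family, from the 23361 genes of the deposited table. All 10 were found, and 7 of them passed the filter on low values. The cancers came from tamoxifen-treated mice that carried Trp53 loxP/loxP and Rb1 loxP/loxP together with Lgr5 eGFP-Ires-CreERT2 and Ai9, and are labelled Trp53-/-Rb1-/-. In this model Cre is driven from the Lgr5 locus, and tumours were cut out along the border of the tdTomato signal of the Ai9 reporter, so a sample holds whatever other cells lay inside that border. The SCJ of wild type mice paired by age served as control tissue. There were 5 cancers and 3 controls, each an RNA sequencing library of polyadenylated RNA. No label names the animal behind a sample, so the p-values measure the spread between these samples.

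Microtubules are polymers of alpha- and beta-tubulin dimers. Vertebrates make these dimers from several genes, called isotypes, and some of them, such as Tubb3 and Tubb2b, are used mostly by neurons. Stathmins bind free tubulin dimers and favour the shrinking of microtubules. Stmn1 is found in many dividing cells, whereas Stmn2, Stmn3 and Stmn4 are known from neurons, where they sit on membranes of the Golgi apparatus and growth cones. Doublecortin (Dcx) and tau (Mapt) bind along the polymer and stabilise it in migrating neurons and axons. Cells of the neuroendocrine lineage share part of this neuronal programme, and Tubb3, Stmn2 and Dcx are widely used to recognise neurons in tissue.

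The sequences of the family matter here because several members are so alike that reads can fit more than 1 gene. The coding sequences of Tubb2a and Tubb2b were identical at 96.5% of 1338 aligned bases, and 49.6% of the 50-base words of the Tubb2a transcript also occurred in transcripts of other genes. The last 90 coding bases of both are shown with those of Tubb3, as beta-tubulin isotypes tend to differ most at this end, though this pair does not. They are taken from GENCODE transcripts on GRCm38. Capitals in Tubb2b mark the 3 bases that differ from Tubb2a, none of which changes the encoded amino acid.
Tubb2a: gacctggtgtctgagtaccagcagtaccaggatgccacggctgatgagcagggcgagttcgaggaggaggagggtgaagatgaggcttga
Tubb2b: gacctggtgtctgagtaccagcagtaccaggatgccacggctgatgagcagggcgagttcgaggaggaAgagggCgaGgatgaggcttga
Tubb3: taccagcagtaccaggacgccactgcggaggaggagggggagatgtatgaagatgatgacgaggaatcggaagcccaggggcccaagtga

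Tubb3 shared no 50-base word with another gene, and its coding sequence was 84.3% identical to that of Tubb2a. Tuba1a was the least separable member, with 72.9% of its words found elsewhere and a coding sequence 98.3% identical to Tuba1b. For Stmn1 the share was 36.5%, mostly words of the gene model Gm11223. Stmn2, Stmn3, Stmn4, Dcx and Mapt shared none. Values of Tuba1a, Tubb2a, Tubb2b and Stmn1 are therefore uncertain to the extent that the authors' counting divided shared reads. In GENCODE, 473 exonic bases of Tuba1a are also exons of Gm49450 on the same strand, and 66 of Stmn1 are also those of Gm23634. Neither Gm49450 nor Gm23634 is listed under that name among the deposited values.

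The first 90 coding bases of Stmn1, Stmn2 and Stmn3 are shown because these are the stathmins measured above 0, and they differ in structure at this end. Capitals mark cysteine codons read in frame. Stmn2 and Stmn3 had such codons at positions 22 and 24, counted from the start codon, within the N-terminal part that anchors these proteins to membranes. Stmn1 had 0 in this stretch. The changes in level given below do not follow this difference.
Stmn1: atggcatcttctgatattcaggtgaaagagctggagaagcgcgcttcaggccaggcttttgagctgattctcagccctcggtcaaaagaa
Stmn2: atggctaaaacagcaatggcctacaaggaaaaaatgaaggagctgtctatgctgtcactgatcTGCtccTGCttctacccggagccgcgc
Stmn3: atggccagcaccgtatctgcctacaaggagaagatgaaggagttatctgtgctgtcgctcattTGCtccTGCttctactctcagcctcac

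The deposited values are FPKM (fragments per kilobase of exon, corrected for library size), rounded to whole numbers. FPKM corrects for transcript length, so levels of different genes can be set side by side. Rounding makes values under about 5 coarse, and the depth of the libraries is unknown. Fold changes are differences of mean log2(FPKM + 1) and understate the change of low genes. Of 14357 genes tested with limma, 16.2% were higher and 18.3% lower in the cancers at an adjusted p under 0.05. The median of all genes was -0.04. Summed FPKM was 403569 to 573858 in the cancers, against 887141 to 992550 in the controls. Scaling every library to the same sum (TPM, transcripts scaled to a fixed sum) therefore moved the median of all genes to 0.81, with 50% of genes higher and 3.68% lower. Of the deleted genes, Trp53 had FPKM of 12, 22, 12, 30 and 12 in cancers 1 to 5, against 16, 17 and 19 in controls 1 to 3. Rb1 had 4, 4, 5, 6 and 4 in the cancers, against 9, 9 and 10 in the controls.

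Some cancers differed in the tissue they held. Mean log2(FPKM + 1) over 11 gastric gland genes was 10.6 to 11.97 in the controls and 2.25, 10.5, 7.34, 10.3 and 8.43 in cancers 1 to 5. Over 10 squamous genes it was 0.10, 1.34, 4.12, 6.10 and 4.69 in cancers 1 to 5 and 5.58 to 6.11 in the controls, so that cancers 1 and 2 were lowest and cancer 4 lay at the level of the controls. Cancer 5 carried 12 hepatocyte genes at 5.50, against 0.99 to 1.71 in the other cancers. Over 10 immune genes cancer 1 had 3.66, against 1.40 to 2.05 in the other cancers. The neuroendocrine list passed the test upward for 17 of its 17 tested genes and stood at 6.29 to 7.45 in the cancers, against 1.64 to 1.92 in the controls. Each member is given below in every sample, and the fits were repeated without cancers 1 and 5.

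Of the 10 genes, 3 rose in the cancers (Stmn3, Stmn1 and Tuba1a), 1 fell (Tubb2a) and 3 did not pass the test (Tubb3, Tubb2b and Stmn2). Stmn4, Dcx and Mapt were too low to be tested. Tubb3, Stmn2 and Dcx, the members named above as markers of neurons, had mean FPKM of 4.2, 2.2 and 0.8 in the cancers. The largest change was that of Stmn3. Some neuronal genes outside the members, such as Gap43 and Map2, rose and are given below. The groups did not overlap for Stmn3, Stmn1, Tuba1a and Tubb2a, where 34.1% of all tested genes had groups that did not overlap. Of the members tested, 3 of 7 were higher and 1 of 7 was lower, beside 16.2% higher and 18.3% lower of all tested genes.

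**Figure D1:**
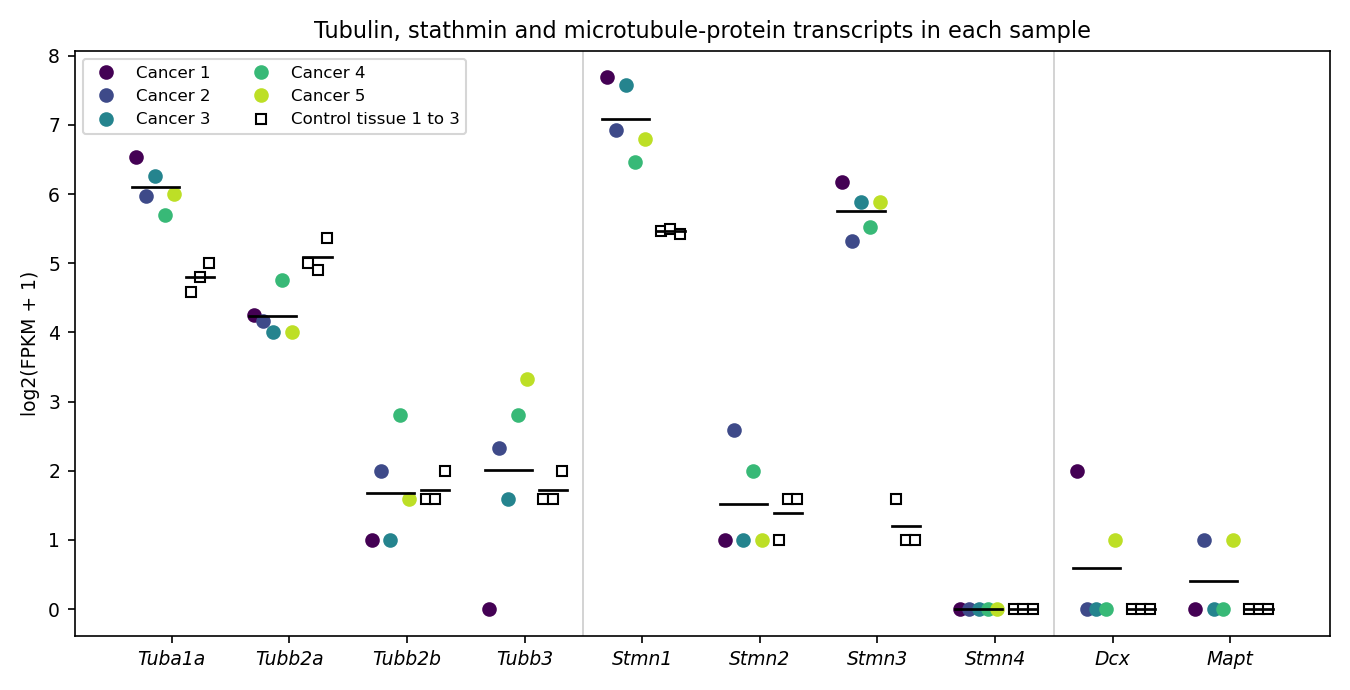
Level of each of the 10 genes in every sample, as log2(FPKM + 1). Filled circles are cancers 1 to 5, open squares are controls 1 to 3 and bars are group means. Stmn3, Stmn1 and Tuba1a lie higher in all 5 cancers and Tubb2a lies lower, whereas the other 6 genes overlap between groups.

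Stmn3 showed the clearest difference. This gene (chromosome 2, 181306459 to 181314500, mm10, minus strand) encodes a membrane-bound stathmin of neurons. Its FPKM was 71, 39, 58, 45 and 58 in cancers 1 to 5 and 2, 1 and 1 in controls 1 to 3. Every cancer was at least at 39, while no control was above 2. The mean was 54.2 ± 12.5 (SD, n = 5) in the cancers, against 1.33 ± 0.577 (SD, n = 3) in the controls. The ratio of these means was 40.7, and rounding alone leaves it between 29.3 and 65.6. On the log2(FPKM + 1) scale the difference was 4.56 (standard error 0.23, 95% interval 4.02 to 5.10, adjusted p = 0.000169 from limma). It was 5.56 with TPM, which is 4.75 above the median of all genes on that scale, and it was 4.38 without cancers 1 and 5.

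Stmn1 (chromosome 4, 134468320 to 134473843, plus strand) was the most abundant member in both groups. It encodes the soluble stathmin of dividing cells. FPKM was 205, 120, 189, 87 and 110 in the cancers, against 43, 44 and 42 in the controls. The controls lay within 2 FPKM of each other, and the lowest cancer was at 87. The mean was 142 ± 51.7 (SD, n = 5) against 43 ± 1 (SD, n = 3). The log2 difference was 1.63 (standard error 0.29, 95% interval 0.95 to 2.30, adjusted p = 0.00639 from limma). It was 2.60 with TPM, which is 1.79 above the median of all genes on that scale, and 1.52 without cancers 1 and 5.

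Genes of the cell cycle moved beside Stmn1. Of 20 proliferation genes, 12 rose and 0 fell in limma, with a median log2 change of 1.0, and at an unadjusted p under 0.05 these counts were 16 and 0. The count of 12 was 6 without cancer 3, 7 without control 1 and 3 without control 2 or control 3. The genes that rose included Mcm2, part of the replicative helicase, with FPKM of 40, 23, 29, 18 and 23 in the cancers, against 7 to 9 in the controls (log2 change 1.57, adjusted p = 0.00397 from limma). Ube2c, which serves the exit from mitosis, had 36 to 82 in the cancers, against 13 to 34 in the controls (1.47, adjusted p = 0.0208). Cdk1, the mitotic kinase, and Ccnb1, its cyclin, also rose (1.45 and 1.43). Mki67 had 11 to 25 against 7 to 10 and did not pass the test (0.86, adjusted p = 0.0566). The summary level of this list was 4.75, 4.4, 4.58, 3.79 and 3.89 in cancers 1 to 5 and 3.13 to 3.62 in the controls. Cancers 1 and 3 thus stood highest for Stmn1 and for this list, and cancer 4 stood lowest for both. The part of proliferation in the level of Stmn1 was not tested.

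Stmn2 (chromosome 3, 8509527 to 8561604, plus strand), the neuronal growth-cone stathmin, did not follow Stmn3. Its FPKM was 1, 5, 1, 3 and 1 in the cancers, against 1, 2 and 2 in the controls. The groups overlapped, and 3 of 5 cancers were at 1. The log2 difference was 0.13 (standard error 0.42, 95% interval -0.85 to 1.10, adjusted p = 0.832 from limma), and an exact permutation test of this single value (two-sided) gave p = 0.75. Its sign turned to -0.27 after quantile normalisation and to -0.14 without cancer 2, the sample with the highest value. Stmn4 (chromosome 14, 66344375 to 66361680, plus strand), the remaining neuronal stathmin, was listed at 0 in all 8 samples.

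Cancers 2 and 4, where Stmn2 was above its level in the other cancers, had the highest values of Vip, Prph and Htr3a, while other nerve transcripts were ordered differently. Vip, a neuropeptide of enteric neurons, had FPKM of 0, 25, 5, 9 and 1 in cancers 1 to 5 and 5, 4 and 2 in the controls. Prph, the intermediate filament of peripheral neurons, had 0, 3, 1, 3 and 1 against 1, 2 and 1. Htr3a, a serotonin receptor, had 0, 1, 0, 1 and 0 against 1 in each control, so that cancers 2 and 4 only reached the level of the controls. Hand2 had 0, 12, 3, 3 and 2 against 3, 2 and 1, and Gal had 0, 28, 2, 2 and 2 against 0, 0 and 3, both highest in cancer 2. The mean log2(FPKM + 1) over 10 smooth muscle genes was 1.76, 6.04, 4.36, 4.07 and 2.51 in cancers 1 to 5, highest in cancer 2. Of the 17 enteric neuron genes, 5 rose (among them Uchl1, Nefm, Nefl and Ret), 0 fell, 8 did not pass the test in limma and 4 were not tested, and at an unadjusted p under 0.05 the counts were again 5 and 0. Nefl had 27, 8, 20, 1 and 6 FPKM in cancers 1 to 5, Nefm 17, 5, 12, 4 and 14, and Ret 9, 5, 8, 4 and 15, each with its lowest values in cancers 2 and 4 or in cancers 4 and 5. The mean log2(FPKM + 1) of the list was 1.96, 2.43, 2.0, 1.64 and 1.66 in cancers 1 to 5, highest in cancer 2 and lowest in cancer 4, and 0.73 to 0.79 in the controls. The defining genes Chat and Slc18a3 were listed at 0 in every sample. Of 10 enteric glia genes, 1 rose and 2 fell (Erbb3 and Mbp), the list stood at 0.95 to 1.67 against 1.35 to 1.49, and Sox10 and Foxd3 were listed at 0 throughout. A value of 0 in this table need not mean absence, as the pepsinogen gene Pgc was listed at 0 in 2 of 3 controls of gastric tissue. The part of nerve and muscle tissue in these values was not tested. In bulk samples, fewer cells of a type and less RNA per cell cannot be told apart.

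The make-up of the stathmin family changed accordingly. Stmn1 supplied 93.3% to 93.6% of the summed stathmin FPKM in the controls and 64.4% to 76.2% in the cancers. Its share was 70.6% ± 5.43 (SD, n = 5) against 93.5% ± 0.142 (SD, n = 3), although its level rose. Stmn3 supplied 25.6%, 23.8%, 23.4%, 33.3% and 34.3% in cancers 1 to 5 and 4.35%, 2.13% and 2.22% in the controls. Both differences had p = 0.0179 in the two-sided exact permutation test, the smallest it can give for 5 against 3, and 0.0417 after adjustment over the 7 shares tested. The share of Stmn2 was 1.33% ± 1.23 against 3.62% ± 1.26 (exact p = 0.0714, adjusted p = 0.10). The family sum was 135 to 277 FPKM in the cancers, against 45 to 47 in the controls, so most of the stathmin transcripts of the cancers were Stmn1 and nearly all the rest were Stmn3.

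**Figure D2:**
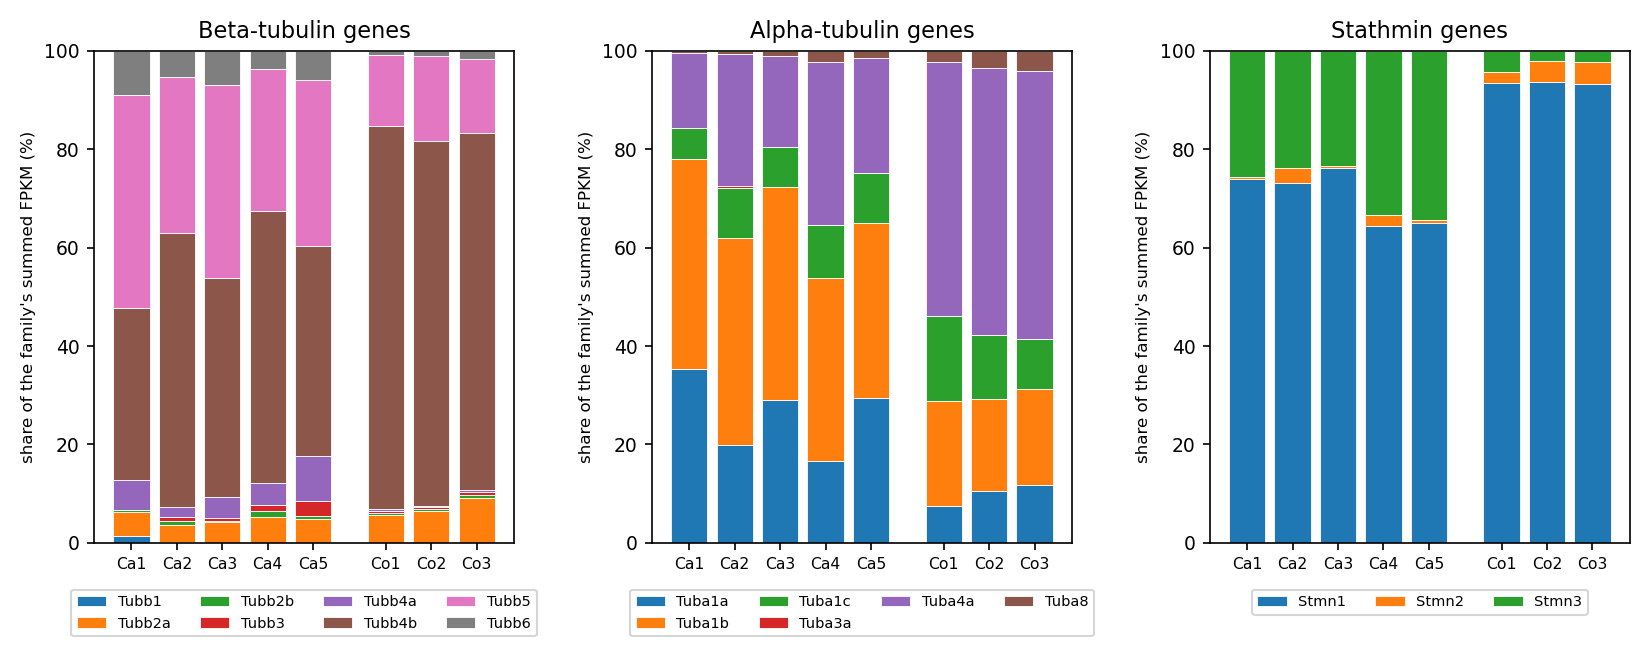
Share (%) of each gene in the summed FPKM of its family, for the beta-tubulins, the alpha-tubulins and the stathmins. Each bar is 1 sample, with Ca1 to Ca5 the cancers and Co1 to Co3 the controls. Stmn3 takes 23.4% to 34.3% of the stathmin sum in the cancers, Tuba1a takes 16.6% to 35.4% of the alpha-tubulin sum, and Tubb4b takes 35.0% to 55.7% of the beta-tubulin sum in the cancers, against 72.5% to 78.0% in the controls.

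Among the tubulins, Tuba1a rose. This alpha-tubulin gene (chromosome 15, 98949847 to 98953501, minus strand) is strongly used in developing neurons. FPKM was 92, 62, 76, 51 and 63 in the cancers, against 23, 27 and 31 in the controls. All 5 cancers were above all 3 controls. The mean was 68.8 ± 15.7 (SD, n = 5) against 27 ± 4 (SD, n = 3), and the log2 difference was 1.3 (standard error 0.20, 95% interval 0.82 to 1.78, adjusted p = 0.00419 from limma). It was 2.27 with TPM, which is 1.46 above the median of all genes on that scale, and 1.18 without cancers 1 and 5.

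The sum of all alpha-tubulin genes overlapped between the groups. It was 214 to 313 FPKM in the cancers, against 256 to 306 in the controls. Tuba1a took 35.4%, 19.8%, 29.1%, 16.6% and 29.4% of it in the cancers, against 7.52%, 10.5% and 11.8% in the controls (two-sided exact permutation p = 0.0357, adjusted p = 0.0625 over the 7 shares). Tuba1b, its close relative, also rose, from 48 to 65 FPKM in the controls to 76 to 132 in the cancers (log2 change 0.98, adjusted p = 0.0103 from limma). Tuba4a fell from 139 to 158 down to 40 to 102 (-1.26, adjusted p = 0.0204), and its mean share was 53.4% in the controls and 23.4% in the cancers. With TPM the call of Tuba4a was lost (-0.29, adjusted p = 0.274 from limma), while Tuba1b had 1.95. Relative to the median of all genes on that scale, Tuba4a was at -1.10. After quantile normalisation Tuba4a kept its call (-0.80, adjusted p = 0.0392 from limma). Tuba1c, whose coding sequence is 97.6% identical to that of Tuba1a, had 16 to 33 FPKM in the cancers, against 27 to 53 in the controls, and did not pass the test (-0.58, adjusted p = 0.163 from limma). Its mean share was 9.08% in the cancers and 13.5% in the controls. Since Tuba1a, Tuba1b and Tuba1c share many words, how their reads were divided among them cannot be seen in the values.

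Tubb2a was the member that fell. This beta-tubulin gene (chromosome 13, 34074280 to 34078008, minus strand) is used in neurons and, at lower levels, in other tissues. FPKM was 18, 17, 15, 26 and 15 in the cancers, against 31, 29 and 40 in the controls. The highest cancer, at 26, lay just under the lowest control, at 29. The mean was 18.2 ± 4.55 (SD, n = 5) against 33.3 ± 5.86 (SD, n = 3). The log2 difference was -0.85 (standard error 0.21, 95% interval -1.33 to -0.38, adjusted p = 0.0180 from limma). The call was lost with quantile normalisation (adjusted p = 0.109), without control 1 or 3 (0.0538 and 0.0693), and without cancers 1 and 5 (0.0721), all from limma. With TPM the value turned to 0.09 (adjusted p = 0.726), which is 0.72 below the median of all genes on that scale.

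Tubb2b (chromosome 13, 34127008 to 34130354, minus strand), the near-copy of Tubb2a that is used in migrating neurons, was low. FPKM was 1, 3, 1, 6 and 2 in the cancers, against 2, 2 and 3 in the controls. The groups overlapped, and cancer 4 alone was above all controls. The log2 difference was -0.04 (standard error 0.42, 95% interval -1.02 to 0.93, adjusted p = 0.941 from limma). It was 0.65 with TPM, 0.12 without cancer 1 or cancer 3 and 0.21 without cancers 1 and 5, none of them past the threshold. The TPM value was -0.16 relative to the median of all genes on that scale.

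Tubb3 (chromosome 8, 123411564 to 123422010, plus strand), the class III beta-tubulin that serves as a marker of neurons, ranged more widely among the cancers than in the controls. FPKM was 0, 4, 2, 6 and 9 in cancers 1 to 5 and 2, 2 and 3 in the controls. Cancers 2, 4 and 5 were above every control, and cancer 1 was listed at 0. The mean was 4.20 ± 3.49 (SD, n = 5) against 2.33 ± 0.577 (SD, n = 3). The log2 difference was 0.28 (standard error 0.69, 95% interval -1.32 to 1.89, adjusted p = 0.769 from limma), so that a change of more than 2-fold in either direction lies inside the interval. Without cancer 5 the difference was -0.04, without cancers 1 and 5 it was 0.51, and with a pseudocount of 0.1 it was -0.14. The two-sided exact permutation test gave p = 0.786.

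The order of the cancers for Tubb3 was not that for Stmn3. Cancer 1 had the highest Stmn3, Stmn1 and Tuba1a and the lowest Tubb3. It was also the cancer with the lowest gastric gland and squamous levels. Of all other tested genes, the 3 whose centred log2(FPKM + 1) lay nearest to that of Tubb3 over the 8 samples were Fgfr2 (root mean square difference 0.31), 1190003J15Rik (0.35) and Nrbp2 (0.36). Fgfr2, an epithelial growth factor receptor, had 1, 9, 5, 8 and 14 in the cancers, against 6, 7 and 7 in the controls. For Stmn2 the nearest were Bcl2l12 (0.20), E130215H24Rik (0.23) and Oaf (0.24), and for Stmn1 they were Stx2 (0.05), Ccsap and Pif1 (0.10 each). Stx2 had 8, 4, 7, 3 and 4 in the cancers, against 1 in each control. These are descriptions over the same 8 libraries, and low genes with few rounded steps can match by coarseness.

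The beta-tubulin sum was 307 to 493 FPKM in the cancers, against 443 to 545 in the controls, and members formed a small part of it. Tubb2a had 3.52% to 5.27% in the cancers, against 5.69% to 9.03% in the controls, and its mean share was lower by 2.46 percentage points (4.57% ± 0.704 against 7.03% ± 1.77, exact permutation p = 0.0179, adjusted p = 0.0417). Control 3 was highest with 9.03%, against 5.69% and 6.37% in the other controls, and without it the difference was -1.46 percentage points. Tubb3 had 0%, 0.828%, 0.56%, 1.22% and 2.93% in the cancers, against 0.367% to 0.677% in the controls (exact permutation p = 0.464, adjusted p = 0.542). Tubb2b had 0.275% to 1.22% in the cancers and the same 3 values as Tubb3 in the controls (exact permutation p = 0.732, adjusted p = 0.732). The bulk came from Tubb4b, which fell from 321 to 425 FPKM to 127 to 272 (log2 change -0.98, adjusted p = 0.0459 from limma), and from Tubb5, which rose from 67 to 78 up to 104 to 157 (0.89, adjusted p = 0.00732). With TPM, Tubb4b had -0.01 (adjusted p = 0.972 from limma), and after quantile normalisation it had -0.48 (0.118), so its call was lost on both scales. Relative to the median of all genes with TPM, Tubb4b was at -0.82. Tubb4b is known from ciliated and many other cells and Tubb5 from dividing cells.

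A pair of sequences shows how differently the members with the largest and the least certain change begin. They are the 250 bases before the annotated start of Stmn3 and Tubb3, from RefSeq on GRCm38.p6, and capitals mark CCGCCC on either strand, the letters of a GC box. This table held a promoter for 5 of the 10 members, namely Tubb3, Tubb2a, Tuba1a, Stmn3 and Dcx.
Stmn3, chr2:181314501-181314750, minus strand: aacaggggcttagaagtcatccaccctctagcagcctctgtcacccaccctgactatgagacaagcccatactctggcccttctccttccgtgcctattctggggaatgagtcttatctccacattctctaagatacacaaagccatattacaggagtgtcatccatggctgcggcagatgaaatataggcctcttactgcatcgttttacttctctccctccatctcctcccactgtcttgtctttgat
Tubb3, chr8:123411303-123411552, plus strand: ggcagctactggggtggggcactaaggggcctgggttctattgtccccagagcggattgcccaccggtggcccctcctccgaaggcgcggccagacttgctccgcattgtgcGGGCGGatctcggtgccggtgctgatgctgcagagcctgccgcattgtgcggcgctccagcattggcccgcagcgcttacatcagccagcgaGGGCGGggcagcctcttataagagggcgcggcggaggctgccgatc

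The Stmn3 stretch had 3 CpG and 48.8% G or C and held no CCGCCC, whereas that of Tubb3 had 21 CpG and 68.0% G or C and held CCGCCC 2 times. The letters CCGCCC stood in 32.7% of all 32851 such stretches. Tubb2a held them 2 times, Tuba1a 1 time and neither Dcx stretch held them. None of the 5 genes held CAGCTG (13% of all stretches), GGACAGC (5.28%) or TTTNGCGC (1.13%), searched on both strands. These motifs were picked as short matches to known promoter elements, CAGCTG and CCGCCC do not overlap in letters, and a match or its lack says nothing of binding.

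Dcx and Mapt were near the bottom of the table. Dcx (chromosome X, 143855842 to 143933219, minus strand) had FPKM of 3, 0, 0, 0 and 1 in the cancers, against 0 in all controls. Mapt (chromosome 11, 104231436 to 104332093, plus strand) had 0, 1, 0, 0 and 1 in the cancers, against 0 in all controls. Each was above 0 in 2 of 5 cancers, and the exact permutation test gave p = 0.464 for each. With all controls listed at 0 no fold is given.

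In the order of mean FPKM in the cancers, Stmn1 led at 142, followed by Tuba1a (68.8), Stmn3 (54.2), Tubb2a (18.2), Tubb3 (4.20), Tubb2b (2.60), Stmn2 (2.2), Dcx (0.80), Mapt (0.40) and Stmn4 (0). Within every cancer Stmn1 was above Tuba1a, Tuba1a above Stmn3, and Stmn3 above Tubb2a, although the ranges of the first 3 overlapped between cancers. From Tubb3 down to Stmn4 neighbours could not be ordered, as each pair overlapped. In the controls the order was Stmn1 (43), Tubb2a (33.3), Tuba1a (27), and all others were at 3 or below. Tubb2a thus stood above Tuba1a in each of 3 controls and below it in each of 5 cancers.

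**Figure D3:**
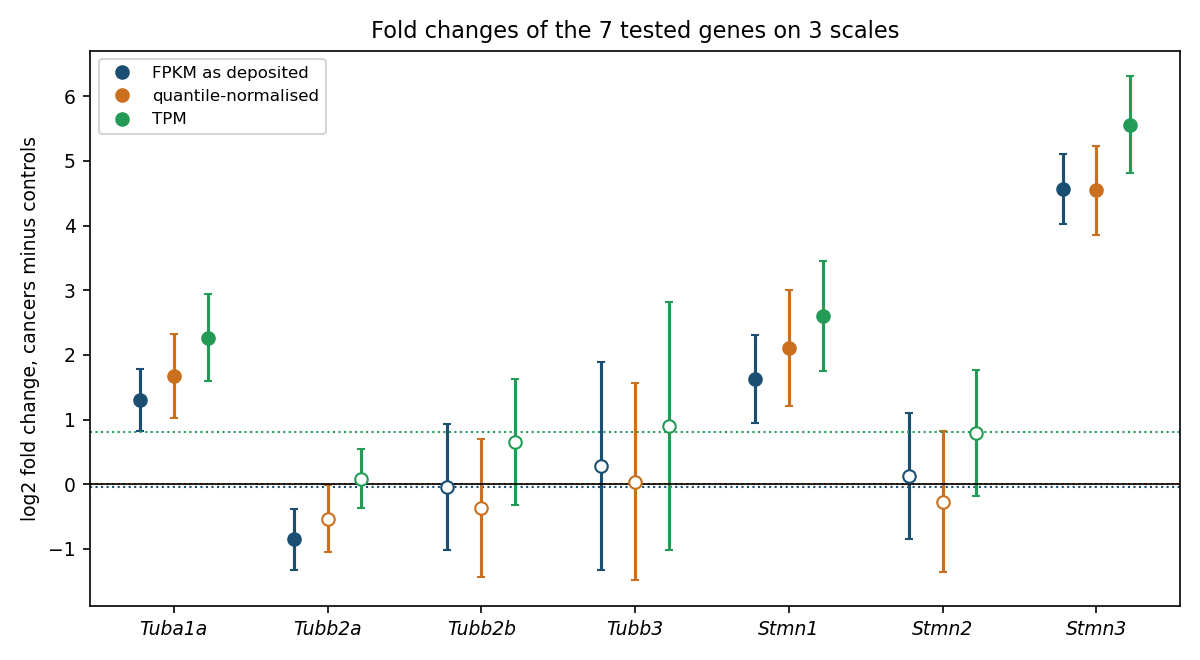
Log2 fold change (cancers minus controls) of the 7 tested genes with 95% intervals, for FPKM as deposited, after quantile normalisation and as TPM. Filled points have an adjusted p under 0.05 in limma, and dotted lines are the median of all genes on each scale. Stmn3, Stmn1 and Tuba1a are filled on all 3 scales, and Tubb2a only on the FPKM scale.

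Other genes of the microtubule system, many of them used by all cells, were grouped by role. Over 7 lists of the microtubule system, which hold 120 genes, 109 were tested, 39 rose and 11 fell, or 35.8% and 10.1%, against 16.2% and 18.3% of all genes. Their median log2 change was 0.19. With TPM the counts were 73 higher and 0 lower. The count of 11 was 7 without cancer 3, 6 without control 1 and 3 without control 2 or control 3. Genes listed at 0 in all controls passed the filter only through the cancers, so that they could only rise. They enter these counts, and a step from 0 to 1 FPKM could pass the test. Their adjusted p-values, given below, rest on few rounded steps where levels are low. With a mean FPKM of at least 5 the counts were 18 higher and 12 lower, against 1244 and 2275 of 9138 genes. The lists were chosen with earlier results of these data known, so these shares are descriptions.

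Of the other tubulins, 7 of 12 tested genes rose and 3 fell, with a median of 0.89. Tubb4a, a beta-tubulin of the nervous system, had the largest rise, with FPKM of 22, 10, 15, 22 and 28 in the cancers, against 2, 1 and 2 in the controls (log2 change 2.88, standard error 0.33, adjusted p = 0.00147 from limma). Its mean FPKM in the cancers was 19.4 ± 6.99 (SD, n = 5), beside 18.2 ± 4.55 for Tubb2a. Tubb6 had 18 to 33 in the cancers, against 5 to 7 in the controls (1.88, adjusted p = 0.00183). Tubg2, a gamma-tubulin of nucleation centres, had 1 to 4 and was listed at 0 in the controls (adjusted p = 0.00492). Tuba8 fell from 7 to 11 down to 1 to 7 (-1.39, adjusted p = 0.0360).

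Of 25 tested microtubule-associated and growth-cone proteins, 12 rose and 4 fell, with a median of 0.55. Gap43, a protein of growth cones, had 47, 25, 48, 20 and 52 in the cancers, against 1, 1 and 0 in the controls (log2 change 4.54, standard error 0.40, adjusted p = 0.000782 from limma). Map2, the dendritic relative of tau, had 24, 6, 21, 6 and 12 in the cancers, against 1 in each control (2.68, adjusted p = 0.00589). Map1b, of growing axons, had 4 to 13 against 1 in each control (2.11, adjusted p = 0.00365). Dclk2, a kinase with doublecortin domains, had 6, 3, 5, 4 and 8 and was listed at 0 in the controls (adjusted p = 0.00108). Map4, of the same family as tau, and Dclk1, a relative of doublecortin, did not pass the test. Map4 had 15 to 24 in the cancers, against 19 to 21 in the controls (-0.10, adjusted p = 0.67), and Dclk1 had 1 to 2 against 2 in each control (-0.12, adjusted p = 0.617). Dclk3 was listed at 0 in every sample but cancer 3, where it was at 1, and was not tested.

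The collapsin response mediators, cytosolic proteins that bind tubulin dimers in growing axons, rose for 3 of 4 tested genes, with a median of 2.06. Dpysl2 had FPKM of 33, 15, 30, 16 and 21 in the cancers, against 3, 2 and 2 in the controls (log2 change 2.79, standard error 0.29, adjusted p = 0.00108 from limma). Crmp1 had 10, 5, 8, 6 and 19 and was listed at 0 in the controls (adjusted p = 0.00145), and Dpysl5 had 1 to 3 against 0 (adjusted p = 0.00921). Dpysl4 was listed at 0 throughout.

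Of 17 tested enzymes that modify tubulin, 6 rose and 1 fell, with a median of 0.36. Hdac6, which deacetylates alpha-tubulin, had 26, 12, 22, 11 and 17 in the cancers, against 2, 4 and 4 in the controls (log2 change 2.07, adjusted p = 0.00402 from limma). Vash1 and Vash2, which remove the last tyrosine of alpha-tubulin, had 1 to 2 and 1 to 6 in the cancers and were listed at 0 in the controls (adjusted p = 0.00325 and 0.0175). Ttll3, of the tubulin ligase family, had 1 to 2 against 0 (adjusted p = 0.00430).

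Severing and folding factors had 2 of 19 tested genes higher and 0 lower in limma (2 and 1 at an unadjusted p under 0.05), with a median of -0.11. Katnal1, a katanin-like severing enzyme, had 1 to 3 in the cancers, against 0 to 1 in the controls (log2 change 1.27, adjusted p = 0.0350 from limma), and Fignl1 had 4 to 8 against 1 to 3 (1.35, adjusted p = 0.0162). Of 20 transport motors and their partners 5 rose and 2 fell, with a median of -0.09. Kif1a, the kinesin of synaptic vesicle precursors, had 11, 6, 9, 6 and 16 in the cancers, against 1, 3 and 4 in the controls (1.55, adjusted p = 0.0218), and Mapk8ip1, a cargo adaptor, had 10 to 27 against 5 to 9 (1.29, adjusted p = 0.0320). Dync1i1, a dynein chain of neurons, had 2 to 7 and Kif3c had 1 to 3, both with 0 in the controls (adjusted p = 0.00278 and 0.00577).

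Of 12 kinases and activators that act on tau or doublecortin, 4 rose and 1 fell, with a median of 0.20. Cdk5r2, an activator of Cdk5, had 19, 8, 25, 10 and 17 FPKM in the cancers and was listed at 0 in all controls (adjusted p = 0.000782 from limma). Cdk5r1, the other activator, had 1 to 2 against 0 (adjusted p = 0.00385), and Mapk10 had 1 to 4 against 0 (adjusted p = 0.0163). Both entered the test only through the cancers, and their spread is set largely by rounding, so these p-values add little. Cdk5 itself had 16 to 21 against 12 to 18 and did not pass the test (log2 change 0.24, adjusted p = 0.256). Mark2 fell from 31 to 41 down to 13 to 28 (-0.96, adjusted p = 0.0270).

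**Figure D4:**
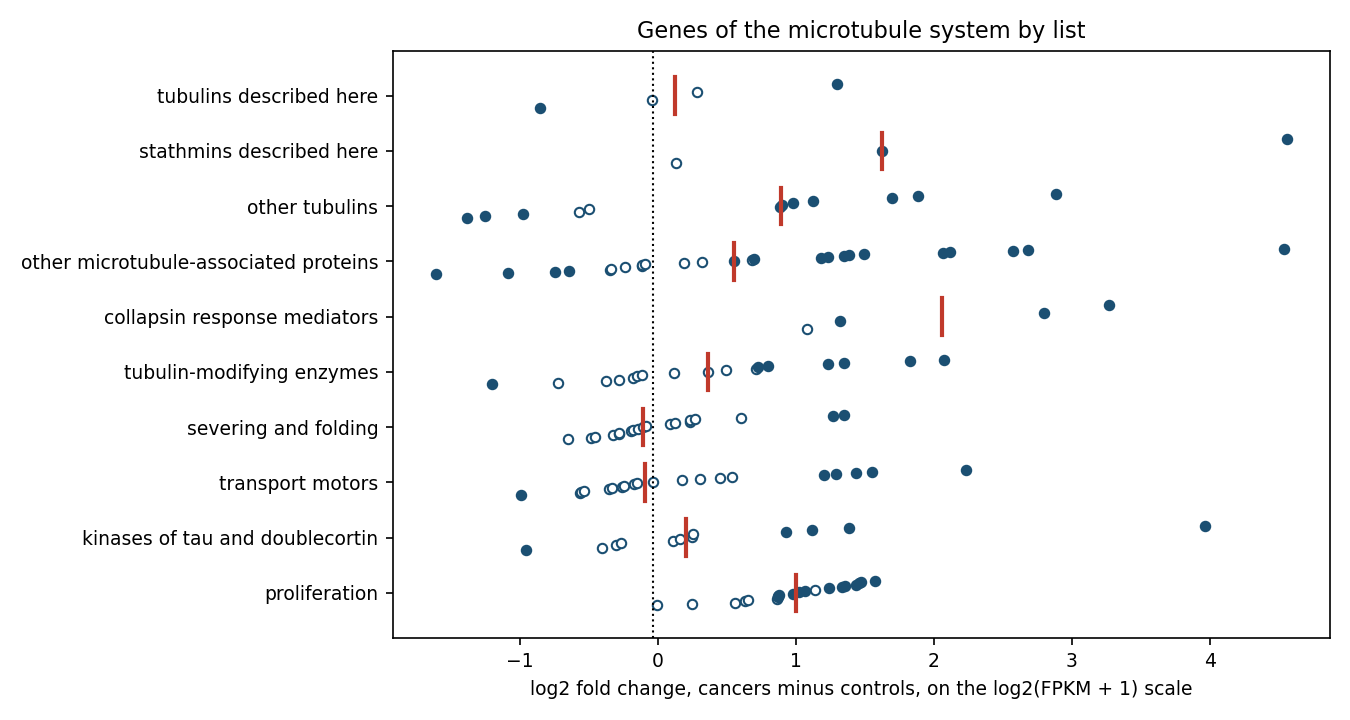
Log2 fold change (cancers minus controls) of each tested gene of the described tubulins and stathmins, of the 7 lists of the microtubule system and of the proliferation list. Filled circles have an adjusted p under 0.05 in limma, red bars are list medians and the dotted line is the median of all genes (-0.04). Medians run from -0.11 for severing and folding factors to 2.06 for the collapsin response mediators.

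Other sources of neuronal or endocrine transcripts were examined by their defining genes. Of the 8 adrenal medulla genes, 5 were listed at 0 in all samples, among them Dbh and Pnmt, and Ddc and Slc18a1 rose. Th had 9, 8, 1, 0 and 0 in cancers 1 to 5 and 0 in the controls. The list stood at 1.25 to 1.8 in the cancers, against 0.32 to 0.38 in the controls. Of the pancreatic islet genes, Ins1 was at 0 throughout and Ins2 and Iapp were at 1 in cancer 2 alone. Gcg passed the test (adjusted p = 0.0482 from limma) with 8250, 17443, 8054, 89 and 36 in cancers 1 to 5, against 3, 48 and 4 in the controls, and cancer 5 lay below control 2. Ppy had 33, 270, 836, 10 and 0, against 0, 1 and 0, and did not pass the test (adjusted p = 0.0913). The islet list stood at 0.87 to 4.68 against 0.39 to 1.27. Of the other lists, 2 of 10 squamous genes and 1 of 11 gastric gland genes fell in limma, with median log2 changes of -2.04 and -4.29. At an unadjusted p under 0.05 these counts were 3 and 6. Of the smooth muscle genes, 0 of 9 tested changed (0 also at an unadjusted p under 0.05). In limma 2 of 10 fibroblast, 5 of 8 endothelial, 2 of 7 immune and 1 of 6 tested hepatocyte genes rose, and at an unadjusted p under 0.05 these counts were 4, 6, 4 and 2. Smooth muscle stood at 1.76 to 6.04 in the cancers, against 4.17 to 4.53 in the controls, fibroblast at 2.39 to 4.41 against 2.49 to 3.22, and endothelial at 1.8 to 3.0 against 1.20 to 1.59. The part of these tissues in the results was not tested. Stmn3, Stmn1 and Tuba1a kept an adjusted p of 0.000440, 0.0223 and 0.0149 in limma without cancers 1 and 5.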

How the data were processed

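RNA of 5 SCJ cancers and 3 control SCJ samples was analysed, grouped by the sample titles. Per the labels, RNA was isolated with a mirVana kit, polyadenylated RNA was selected and directional libraries were made. The submitters' processing notes name cutadapt 1.8, TopHat2 2.0.13, Cuffnorm 2.2.1 and mm10, and the study's methods name cuffquant. The deposited values are FPKM that the authors rounded to whole numbers, and they were treated as a score and not as counts. All 8 value columns were used. Read numbers are unknown, so no counting interval is given. The starts of the deposited loci count from 0, and 1 was added.

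Genes that reached 1 FPKM in 3 or more samples were fitted on log2(FPKM + 1) with limma 3.58.1 (trend) in R 4.3.3, over all 14357 genes, with Benjamini-Hochberg adjustment, a threshold of 0.05 and 95% intervals. The fit was tested on simulated data. Single genes and family shares were compared by exact permutation (two-sided). The members, lists and alternatives were chosen with earlier results of these data known. Genes named are the 10 members, up to 4 genes of each list with the largest change past the threshold, defining markers at 0, the other genes of each family, and the 3 genes nearest in pattern to Tubb3, Stmn2 and Stmn1. Mki67, Cdk5, Vip, Prph, Htr3a, Hand2, Gal, Pgc, Th, Ins1, Ins2, Iapp, Ppy, Map4, Dclk1, Dclk3 and Dpysl4 were named after their values were seen. Alternatives were a pseudocount of 0.1, other filters (none, or a mean FPKM of at least 5), TPM, quantile normalisation, no trend, array weights, a replicate block, other family sums and leaving out each sample. The fit without cancers 1 and 5 was added after seeing the data. Coding sequences came from GENCODE M21 (GRCm38) transcripts matched by RefSeq accession, and Python 3.11.15 was used.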

Additional observations from a re-analysis of the deposited data

How the results depend on the processing

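The rises of Stmn3 and Stmn1 kept their direction and an adjusted p under 0.05 in limma under every alternative run, and that of Tuba1a under all but the replicate block. Same-numbered samples of the 2 groups did not deviate together (correlations -0.02, -0.19 and -0.10). These values cannot show whether the numbers stand for a pairing, since paired samples need not deviate alike over all genes. With the replicate block, which rests on 3 pairs because cancers 4 and 5 have no partner, Tuba1a had 1.46 (adjusted p = 0.0541), Tubb2a -0.95 (0.0740) and Tubb3 -0.42, 982 of all genes were higher and 552 lower, the 7 lists had 18 higher and 2 lower, and 7 proliferation genes rose. Tubb2a lost its call with quantile normalisation (-0.53) and without cancers 1 and 5 (-0.78), and turned with TPM (0.085, also in the exact test). The number of members that fell was thus 0 with TPM, quantile normalisation, the block or without cancers 1 and 5. Among genes not called, Tubb3 turned with a pseudocount of 0.1 (-0.14), Tubb2b with TPM (0.65, also in the exact test) and without cancers 1 and 5 (0.21), and Stmn2 with quantile normalisation (-0.27) and array weights (-0.20). TPM gave 7176 higher and 528 lower of all genes, 73 and 0 of the 7 lists and 20 proliferation genes higher. The median of all genes with TPM was 0.81, above the TPM values of Tubb2a and Tubb2b. Array weights gave 3909 and 4239, with 18 list genes lower, quantile normalisation gave 6 list genes lower, and a mean FPKM of at least 5 gave 1244 genes and 18 list genes higher. In the stathmin sum without Stmn1, which leaves almost only Stmn2 and Stmn3, the share of Stmn2 (cancers minus controls) differed by -51.1 percentage points (adjusted p = 0.0357) and that of Stmn3 by 51.1, so this value mirrors the rise of Stmn3. Leaving out each sample in turn gave log2 changes of -0.045 to 0.79 for Tubb3, -0.98 to -0.72 for Tubb2a, -0.33 to 0.12 for Tubb2b and -0.14 to 0.26 for Stmn2, a share difference of -0.038 to 0.21 for Tubb2b, 0 to 1 members lower, 1369 to 2466 genes higher and 1121 to 2786 lower, 28 to 39 list genes higher and 3 to 12 lower, and 3 to 15 proliferation genes higher. The counts of all genes fell by over 1.5 times without each control (1369, 1442 and 1520 higher, 1121, 1201 and 1295 lower without controls 1, 2 and 3), and the count of lower genes also without cancer 3 (1702). The cause was not tested. Rounding to whole FPKM limits all values under about 5.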
